A study of Mus musculus with 16 samples.

Results

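The genes described here are the Fc gamma receptor genes Fcgr1, Fcgr2b, Fcgr3 and Fcgr4, the shared signalling subunit Fcer1g, and the Fc receptor-like genes Fcrla and Fcrlb. They are 7 of the 18232 genes measured in RNA-seq of splenic dendritic cells (DCs) with and without Trim33, which encodes a nuclear E3 ubiquitin ligase and transcriptional cofactor. The first 5 were taken by family name. Fcrla and Fcrlb were chosen by their TPM, which was higher in Trim33-deficient than in control conventional DCs of type 2, so the values of all 7 genes in that contrast are given as a description, without a test. The same holds for Fcrla and Fcrlb in the contrast of the conventional subsets, which shares libraries with it.

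The 16 libraries came from C57BL/6 mice aged 6 to 8 weeks, and all mice carried the Trim33 fl/fl alleles. Animals without Cre are called WT. Animals that also carried Itgax-Cre, in which the CD11c promoter drives Cre, are called cKO. Plasmacytoid DCs (pDCs) had 3 WT and 3 cKO libraries, type 1 conventional DCs (cDC1s) had 2 and 2, and type 2 conventional DCs (cDC2s) had 3 and 3. The subsets were sorted by surface protein, pDCs by CD11c and SiglecH. Both cDC subsets were CD11c+, MHC II+ and negative for SiglecH, with CD24 but no CD172a on cDC1s and CD172a but no CD24 on cDC2s. Each library pooled several mice, with more cKO than WT mice per pool, and deletion is limited to cells in which the CD11c promoter is or was active. Values are TPM, a relative abundance scaled for transcript length and for the total of the library. The pDC and cDC tables were normalized separately, so no test was made across them.

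Trim33 itself was lower in every cKO library than in any WT library of its subset. It ranged from 20.6 to 23.8 TPM in WT and from 11.7 to 16.5 TPM in cKO pDCs, from 15.5 to 18.2 and from 7.71 to 7.88 TPM in cDC1s, and from 17.2 to 20.6 and from 7.13 to 8.07 TPM in cDC2s. Depth was estimated at 18.1 to 20.1 M reads per library. Markers separated the subsets as labelled. The summed level of 7 cDC1 markers was 2779 to 3310 TPM in cDC1s and 188 to 254 TPM in cDC2s, and 3609 to 4166 TPM in pDCs, where Irf8 alone was at 3410 to 3933 TPM and Xcr1 at or below 2.64 TPM. The sum of 8 cDC2 markers was 1337 to 1551 TPM in cDC2s and 88.3 to 152 TPM in cDC1s, and that of 8 pDC markers was 16170 to 17380 TPM in pDCs and 295 to 548 TPM in cDCs.

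Fc gamma receptors bind the constant region of IgG and link antibody-coated antigen to uptake, presentation and activation in DCs. Fcgr1, the high-affinity receptor, and Fcgr3 and Fcgr4, the activating receptors of lower affinity, signal through Fcer1g, the common gamma chain with an immunoreceptor tyrosine-based activation motif (ITAM). Fcgr2b is the inhibitory receptor, whose cytoplasmic immunoreceptor tyrosine-based inhibitory motif (ITIM) recruits phosphatases such as SHIP1. Fcrla and Fcrlb are intracellular relatives of these receptors that are best known from B cells.

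On GRCm38, 6 of the 7 genes lie on chromosome 1. On the minus strand, Fcrlb extends from 170906715 to 170913829, Fcrla from 170917594 to 170932216, Fcgr2b from 170960558 to 170976071, Fcgr3 from 171051169 to 171065915 and Fcer1g from 171229572 to 171234349. Fcgr4 lies on the plus strand from 171018926 to 171029761. Fcgr1 lies apart from them on chromosome 3, from 96282909 to 96293969 on the minus strand.

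Promoter sequence is shown for 6 of the genes because Fcrla, Fcrlb and Fcgr3 differed between genotypes in opposite directions in the 2 cDC subsets, with the other receptors beside them for comparison. The bases before the RefSeq start site are given 5′ to 3′ on the gene's own strand, from the GRCm38.p6 assembly. For Fcrla, Fcrlb and Fcgr3 this start lies inside the gene span given above. For Fcrla and Fcrlb no other start was searched. Capitals mark GAGGAA, a core of the motif bound by the myeloid factor PU.1, or its reverse complement TTCCTC. Fcgr2b, in which neither string was found, is shown for contrast. Other forms of the PU.1 motif were not searched in any of the genes, so they may be present in Fcgr2b.
Fcrla, chr1:170927584-170927683, minus strand: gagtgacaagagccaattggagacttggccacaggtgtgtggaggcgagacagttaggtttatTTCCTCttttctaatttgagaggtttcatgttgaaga
Fcrlb, chr1:170912942-170913091, minus strand: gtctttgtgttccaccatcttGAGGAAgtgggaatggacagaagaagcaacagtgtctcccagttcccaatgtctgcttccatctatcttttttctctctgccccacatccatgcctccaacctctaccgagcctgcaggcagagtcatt
Fcgr4, chr1:171018866-171018925, plus strand: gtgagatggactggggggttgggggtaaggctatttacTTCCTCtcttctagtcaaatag
Fcgr3, chr1:171059404-171059463, minus strand: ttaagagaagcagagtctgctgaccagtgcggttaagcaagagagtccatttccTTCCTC
Fcgr1, chr3:96293970-96294069, minus strand: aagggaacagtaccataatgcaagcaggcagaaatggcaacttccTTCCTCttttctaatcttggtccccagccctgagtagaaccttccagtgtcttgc
Fcgr2b, chr1:170976072-170976171, minus strand: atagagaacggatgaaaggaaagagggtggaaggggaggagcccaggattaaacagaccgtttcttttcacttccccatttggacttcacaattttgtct

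Within 250 bases before the start, GAGGAA was found on either strand in 5 of the 7 genes, Fcgr1, Fcgr3, Fcgr4, Fcrla and Fcrlb. It was found in 25.9% of the 27025 genes with a promoter in the same table. In Fcgr1, Fcgr3, Fcgr4 and Fcrla it lay on the opposite strand, as TTCCTC, from 55 to 50, 6 to 1, 22 to 17 and 37 to 32 bases before the start. In Fcrlb it lay on the gene's own strand, from 129 to 124 bases before the start. Fcgr3 has a second annotated start, from which the same match lay 15 to 10 bases away. A core of the interferon-stimulated response element, 2 copies of GAAA with 2 bases between them on either strand, was found in Fcgr4 and Fcrla and in 3.46% of genes. The gamma-activated sequence TTCNNNGAA, which reads the same on both strands in its fixed letters, was found in Fcgr1 and in 8.13% of genes. These are matches of letters and not sites shown to be bound.

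In WT cDCs, the activating side of the family was higher in cDC2s and the Fc receptor-like genes were higher in cDC1s. Fcer1g was at 1449, 1423 and 1314 TPM in the WT cDC2 libraries and at 90.1 and 136 TPM in the WT cDC1 libraries. The groups were far apart, with a mean 12.4-fold higher in cDC2s (log2 fold change of cDC1s over cDC2s -3.64 ± 0.15 SE, adjusted p = 3.151e-08, limma on log2(TPM + 1) with Benjamini-Hochberg adjustment over 11411 genes). Fcgr3 was at 23.3, 28.3 and 20.8 TPM in WT cDC2s and at 3.29 and 2.48 TPM in WT cDC1s (log2 -2.69 ± 0.18 SE, limma adjusted p = 8.166e-07). Fcgr4 was at 37.2, 43.7 and 44.5 TPM in WT cDC2s and at 8.89 and 7.38 TPM in WT cDC1s (log2 -2.23 ± 0.13 SE, limma adjusted p = 4.369e-07). Both activating receptors were thus detected in cDC1s, at levels below all WT cDC2 libraries. In bulk RNA, fewer cells that express a gene and less RNA per cell cannot be told apart.

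Fcgr1 was the least abundant of the receptors. It was at 2.45, 4.39 and 3.02 TPM in WT cDC2s and at 0.23 and 0.62 TPM in WT cDC1s, where 3 reads would correspond to 0.109 to 0.141 TPM. It passed the filter of a mean of at least 1 TPM through the cDC2 libraries alone, so that its lower level in cDC1s (log2 -1.58 ± 0.26 SE) was favoured by the filter. Fcgr2b differed in this contrast by less than the threshold. It was at 68.7, 148 and 90.1 TPM in WT cDC2s and at 127 and 137 TPM in WT cDC1s (log2 0.44 ± 0.24 SE, limma adjusted p = 0.157), and the cDC1 libraries fell within the cDC2 range. One cDC2 library, replicate 2, set much of that spread, and without it Fcgr2b was higher in cDC1s (log2 0.74, limma adjusted p = 0.00137).

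Called here means an adjusted p of at most 0.01 with a log2 fold change of at least 0.5 in size. By that rule, and leaving out Fcgr1, 3 of the other 4 genes taken by name were lower in WT cDC1s, beside 20.8% of all 11411 genes tested. Their libraries did not overlap, beside 41.5% of all genes lower in that way. Fcrla and Fcrlb showed the opposite order. Fcrla was at 170 and 129 TPM in WT cDC1s and at 3.27, 5.04 and 3.20 TPM in WT cDC2s, a mean 38.9-fold higher in cDC1s. Fcrlb was at 37.8 and 27.7 TPM in WT cDC1s and at 2.34, 4.11 and 3.35 TPM in WT cDC2s, a mean 10.0-fold higher. The libraries of the subsets did not overlap for either gene, as for 20.8% of all genes in that direction.

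**Figure D1:**
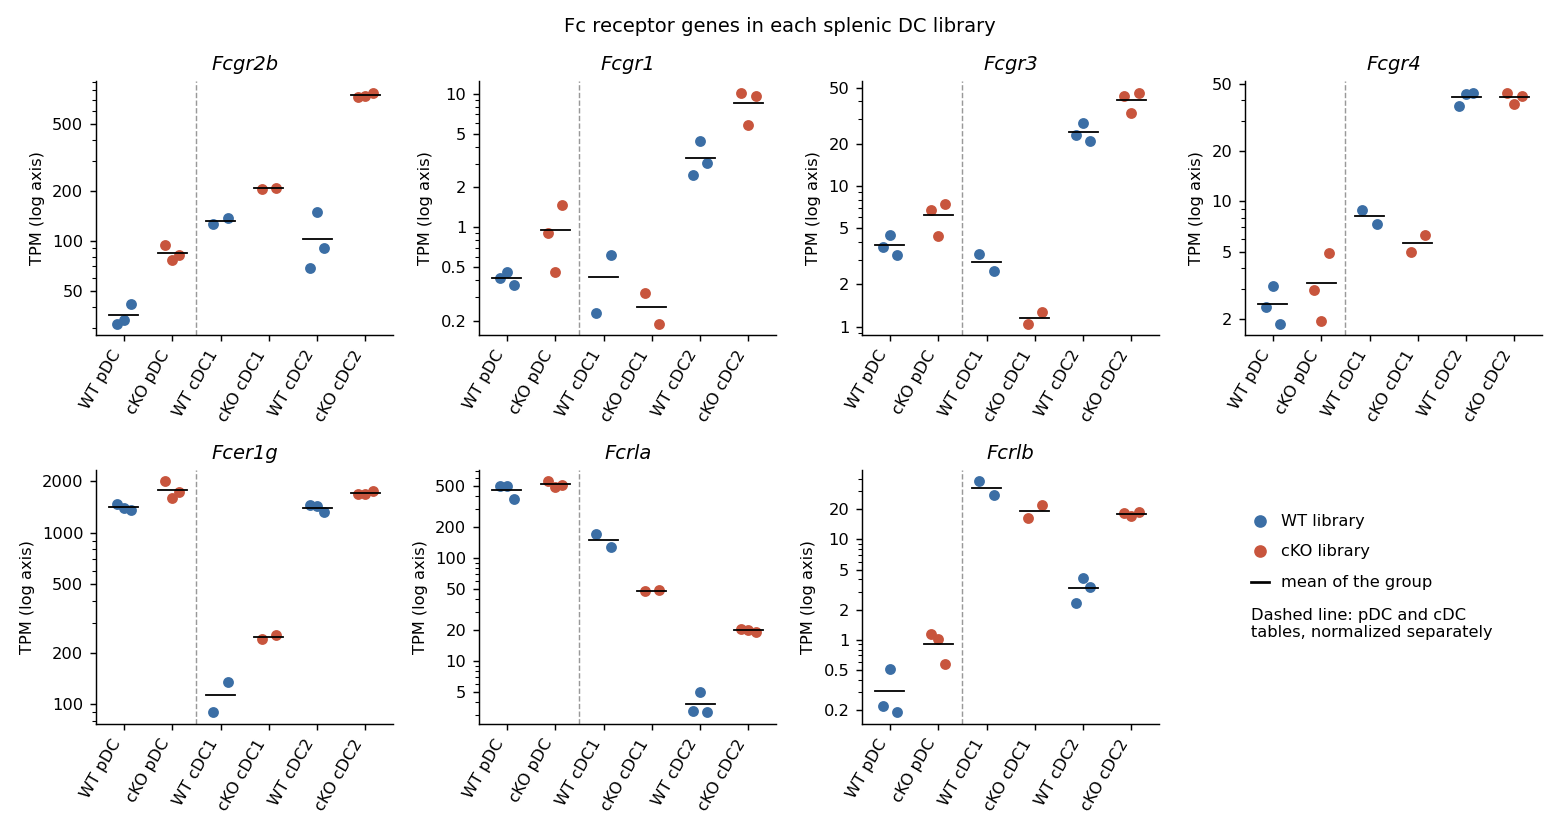
TPM (log axis) of each gene in each library, by genotype and subset, with a horizontal line at the group mean and a dashed line between the separately normalized pDC and cDC tables. Fcgr2b stands at 732 to 776 TPM in the cKO cDC2 libraries and between 31.7 and 208 TPM in all other libraries, whereas Fcrla and Fcrlb of cKO cDC1s and cKO cDC2s lie between the levels of WT cDC1s and WT cDC2s. Fcrla and Fcrlb were chosen by their higher level in cKO cDC2s.

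Across genotypes, the inhibitory receptor Fcgr2b was higher in cKO than in WT libraries of all 3 subsets, without overlap in any. Of all genes tested, 10.8% were higher without overlap in pDCs, 52.1% in cDC1s and 16.3% in cDC2s. In pDCs it was at 31.7, 33.4 and 41.8 TPM in WT and at 93.7, 76.8 and 82.5 TPM in cKO libraries. The lowest cKO library was above the highest WT library. The mean rose from 35.6 ± 5.40 to 84.4 ± 8.61 TPM (SD, n = 3 each), with a log2 fold change of 1.23 ± 0.12 SE (limma adjusted p = 0.00257). Fcgr2b was the 1 gene called of the 5 tested in pDCs, beside 1.05% of all 11299 genes. Without cKO replicate 3 its adjusted p was 0.0116, and with no filter on low values it was 0.0132, both above the limit of 0.01.

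In cDC1s, Fcgr2b was at 127 and 137 TPM in WT and at 205 and 208 TPM in cKO libraries. The groups did not overlap, but the difference was not called (log2 0.65 ± 0.26 SE, limma adjusted p = 0.0757). The SE came from all cDC libraries together, and without WT cDC2 replicate 2 the limma adjusted p was 0.00406. No other single library gave a call when left out. With median-of-ratios scaling the log2 fold change was 0.47 (limma adjusted p = 0.178). In cDC2s, Fcgr2b was at 68.7, 148 and 90.1 TPM in WT and at 732, 738 and 776 TPM in cKO libraries. The mean went from 102 ± 40.8 to 749 ± 23.7 TPM (SD, n = 3 each), a 7.33-fold difference and the largest of the 7 genes in any of the genotype contrasts (log2 2.93 ± 0.21 SE). Of the stretches of 50 bases in Fcgr2b transcripts, the read length used, 4.48% also occur in Fcgr3, and 10.2% of those in Fcgr3 also occur in Fcgr2b. Reads from these stretches could be assigned to either gene, and no other pair of the 7 shared any.

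The activating receptors were tested in pDCs and cDC1s. In pDCs, Fcgr3 was at 3.68, 4.51 and 3.24 TPM in WT and at 6.81, 4.44 and 7.47 TPM in cKO libraries, with 1 cKO library inside the WT range (log2 0.57 ± 0.19 SE, limma adjusted p = 0.146). Fcgr4 was at 2.36, 3.13 and 1.87 TPM in WT and at 2.96, 1.93 and 4.94 TPM in cKO pDCs, which overlapped (log2 0.26 ± 0.27 SE, limma adjusted p = 0.617). Fcgr1 was at 0.37 to 0.46 TPM in WT and at 0.46 to 1.48 TPM in cKO pDCs, below the filter, and was not tested there.

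In cDC1s, Fcgr3 fell. It was at 3.29 and 2.48 TPM in WT and at 1.05 and 1.27 TPM in cKO libraries (log2 -0.84 ± 0.19 SE, limma adjusted p = 0.00685). The values are low, and the call was lost without any single cDC1 library, with adjusted p from 0.0120 to 0.0555, and also without cKO cDC2 replicate 1 or 3, which only share the error estimate. It was also lost with FPKM values, with no filter on low values and with the replicate number as a block (limma adjusted p = 0.027). Fcgr4 was at 8.89 and 7.38 TPM in WT and at 4.96 and 6.30 TPM in cKO cDC1s, lower without overlap but not called (log2 -0.46 ± 0.15 SE, limma adjusted p = 0.0299). In this subset 24.1% of all genes were lower without overlap. Fcgr1 was at 0.23 and 0.62 TPM in WT and at 0.32 and 0.19 TPM in cKO cDC1s, which overlapped (log2 -0.17 ± 0.28 SE, limma adjusted p = 0.660).

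In cDC2s the 3 activating receptors differed among themselves. Fcgr1 was at 2.45, 4.39 and 3.02 TPM in WT and at 10.2, 5.79 and 9.68 TPM in cKO libraries, higher without overlap (log2 1.15). Fcgr3 was at 23.3, 28.3 and 20.8 TPM in WT and at 44.1, 33.3 and 46.3 TPM in cKO libraries, also higher without overlap (log2 0.75). Fcgr4 was at 37.2, 43.7 and 44.5 TPM in WT and at 44.2, 38.1 and 42.6 TPM in cKO libraries, with means of 41.8 ± 3.97 and 41.6 ± 3.18 TPM (SD, n = 3 each). Its groups overlapped fully, and its log2 difference was -0.01.

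Fcer1g, through which the activating receptors signal, was higher without overlap in cKO libraries of each subset. In cDC1s it was at 90.1 and 136 TPM in WT and at 242 and 255 TPM in cKO libraries. The mean rose from 113 ± 32.2 to 248 ± 9.001 TPM (SD, n = 2 each), with a log2 fold change of 1.16 ± 0.16 SE (limma adjusted p = 0.000503). In pDCs it was at 1463, 1398 and 1353 TPM in WT and at 1994, 1599 and 1715 TPM in cKO libraries, a smaller difference that was not called (log2 0.33 ± 0.09 SE, limma adjusted p = 0.0795). In cDC2s it was at 1449, 1423 and 1314 TPM in WT and at 1670, 1691 and 1762 TPM in cKO libraries (log2 0.29). Fcer1g and Fcgr2b were among 463 genes, or 4.36% of the 10619 genes tested in both tables, whose cKO libraries were all above the WT libraries in all 3 subsets.

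The Fc receptor-like genes were at lower levels in cKO cDC1s and at higher levels in cKO cDC2s, without overlap in either subset. Fcrla was at 170 and 129 TPM in WT and at 47.6 and 49.3 TPM in cKO cDC1s. Its mean fell from 149 ± 29.2 to 48.4 ± 1.21 TPM (SD, n = 2 each), with a log2 fold change of -1.59 ± 0.18 SE (limma adjusted p = 0.000225). Fcrlb was at 37.8 and 27.7 TPM in WT and at 16.4 and 21.8 TPM in cKO cDC1s, without overlap but not called (log2 -0.74 ± 0.22 SE, limma adjusted p = 0.0205). For both genes the error estimate came from all cDC libraries, which include the cDC2 libraries used to choose them. Their p-values are therefore not independent of that choice. With the libraries scaled by the median of ratios, both Fcrlb (adjusted p = 0.00667) and Fcgr4 (adjusted p = 0.00434) were called lower by the same limma fit. With the replicate number as a block neither was called (limma adjusted p = 0.0454 and 0.0713). Leaving out single libraries, the log2 fold change ranged from -0.96 to -0.53 for Fcrlb and from -0.61 to -0.32 for Fcgr4.

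In cDC2s, Fcrla was at 3.27, 5.04 and 3.20 TPM in WT and at 20.3, 20.2 and 19.1 TPM in cKO libraries, a 5.18-fold difference in the mean (log2 2.13). Fcrlb was at 2.34, 4.11 and 3.35 TPM in WT and at 18.3, 17.2 and 18.5 TPM in cKO libraries, a 5.51-fold difference (log2 2.18). The cKO cDC2 libraries were close together for both genes. They remained below the cKO cDC1 libraries for Fcrla, and lay within the range of the cKO cDC1 libraries for Fcrlb. The cKO means of cDC1s and cDC2s were 48.4 and 19.9 TPM for Fcrla and 19.1 and 18.01 TPM for Fcrlb. They were closer together than the WT means, which the choice of both genes by their higher level in cKO cDC2s favoured.

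In pDCs, Fcrla was abundant in both genotypes. It was at 495, 501 and 375 TPM in WT and at 554, 492 and 508 TPM in cKO libraries, which overlapped (log2 0.19 ± 0.11 SE, limma adjusted p = 0.387). Fcrlb was near the detection limit in pDCs, at 0.19 to 0.51 TPM in WT and 0.57 to 1.14 TPM in cKO libraries, where 3 reads would correspond to 0.225 to 0.290 TPM. It was not tested there. Within the pDC libraries, Fcrla was therefore high and Fcrlb near the detection limit. In the separately normalized cDC table both genes were highest in WT cDC1s and lowest in WT cDC2s, with both cKO groups between them. The place of the cDC2 groups in that order was favoured by the choice of these genes.

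**Figure D2:**
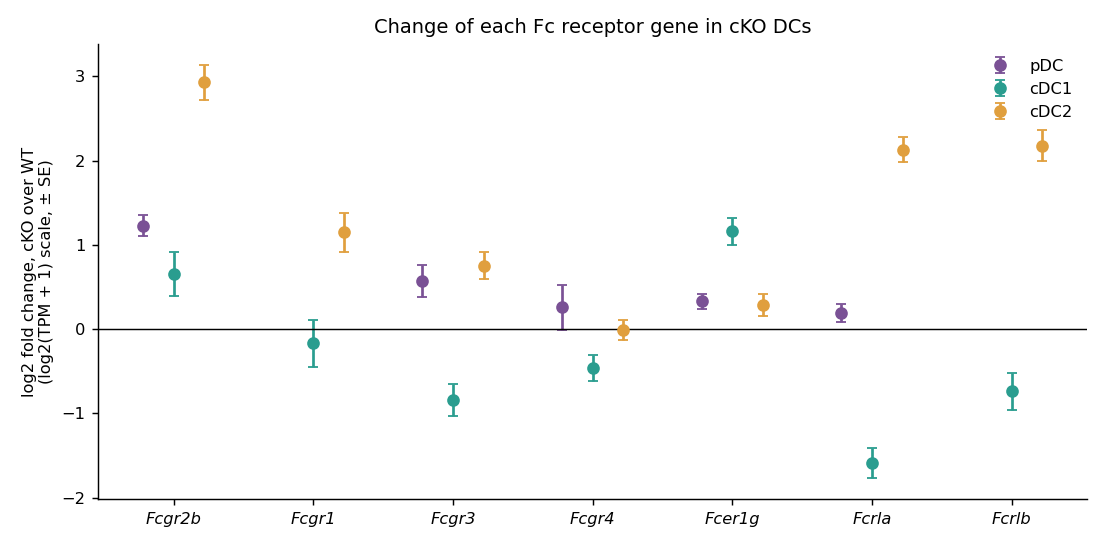
Log2 fold change of cKO over WT libraries for each gene in pDCs, cDC1s and cDC2s, on the log2(TPM + 1) scale, with bars of 1 SE from the limma fit. Fcgr1 and Fcrlb were not tested in pDCs. Fcgr3, Fcrla and Fcrlb lie below 0 in cDC1s and above 0 in cDC2s, while Fcgr2b and Fcer1g lie above 0 in all 3 subsets.

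In counts, 3 of the 7 genes were called in cDC1s, Fcer1g higher and Fcgr3 and Fcrla lower, beside 22.4% of all genes tested, 15.8% higher and 6.56% lower. The median of all genes was itself 0.17 higher on the log2 scale in cKO cDC1s, and with median-of-ratios scaling, which brought it to 0.02, 49.9% in place of 70.7% of all calls were higher. In cDC2s, 5 of the 7 passed the same limits, all higher, beside 3.59% of all genes called higher, and nothing is read from this count because the choice of genes used that contrast. Fcgr3, Fcrla and Fcrlb were among the 114 genes, 0.999% of those tested, whose cKO libraries were all lower in cDC1s and all higher in cDC2s. Fcrla and Fcrlb were chosen by their higher level in cKO cDC2s, so nothing is read from this share for them. The difference between the subsets was not tested for them.

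Markers of other cells moved with some of these values. In cDC2s the summed level of 17 monocyte and macrophage markers was 1433 to 1979 TPM in WT and 2787 to 3658 TPM in cKO libraries, with 16 and 17 of them at a mean of at least 1 TPM. Lyz2 alone was at 617 to 1048 TPM in WT and at 1945 to 2449 TPM in cKO libraries. Of the defining markers, Ly6c2 was higher, at 8.61 to 16.0 and 18.5 to 30.03 TPM, C1qa overlapped, at 61.5 to 145 and 95.0 to 152 TPM, and Adgre1 was lower, at 180 to 187 and 147 to 152 TPM. The part of these cells in the cDC2 values was not tested.

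Markers of B cells, in which Fcrla, Fcrlb and Fcgr2b are also known, did not all move one way. In cDC2s their 9 genes summed to 68.8 to 79.6 TPM in WT and 52.9 to 54 TPM in cKO libraries. Ms4a1 was lower, at 12.4 to 21.5 and 4.80 to 5.87 TPM, Cd79b was higher, at 29.1 to 35.6 and 39.7 to 40.9 TPM, and the defining marker Cd79a overlapped, at 1.63 to 2.95 and 2.21 to 2.91 TPM. In cDC1s the sum was 24.6 to 33.8 TPM in WT and 18.1 to 19.3 TPM in cKO libraries, lower together with Fcrla, while Cd79b was higher, at 1.66 to 4.58 and 6.41 to 8.04 TPM. Of the cDC1 markers themselves, Itgae (62 to 77.7 and 9.63 to 10.1 TPM), Cadm1 (192 to 196 and 54.5 to 60.5 TPM), Clec9a (536 to 547 and 213 to 216 TPM) and Xcr1 (303 to 307 and 202 to 224 TPM) were lower in cKO cDC1s together with Fcrla, and Irf8 was higher (1720 to 1754 and 1855 to 1928 TPM). The 8 pDC markers summed to 295 to 353 TPM in WT and 502 to 511 TPM in cKO cDC1s, and the 8 cDC2 markers to 88.3 to 120 and 138 to 152 TPM. The 10 neutrophil markers summed to 6.52 to 22.3 and 27.7 to 46.7 TPM. These sums were higher, as was Fcer1g, beside 52.1% of all genes higher without overlap in cDC1s. Their members did not all move one way. Irf7 (137 to 178 and 248 to 262 TPM), Bst2 (113 to 129 and 199 to 200 TPM) and Notch2 (50.4 to 64.2 and 78.4 to 96.3 TPM) were higher. Ccr9 (17.6 to 18.8 and 8.07 to 9.6 TPM) and Esam (9.06 to 13.5 and 1.34 to 1.61 TPM) were lower, and Irf4 overlapped. The 17 monocyte and macrophage markers summed to 437 to 708 TPM in WT and 498 to 525 TPM in cKO cDC1s, which overlapped. Of the defining markers, C1qa (10.33 to 13.35 and 4.4 to 6.48 TPM) and Adgre1 (3.25 to 4.04 and 2.28 to 3.07 TPM) were lower, as were Fcgr3 and Fcgr4. Ly6c2 (21.07 to 27.74 and 62.4 to 69.02 TPM) was higher, as were Csf1r and Ccr2. In pDCs, B cell markers summed to 63.4 to 92.4 TPM in WT and 82.6 to 151 TPM in cKO libraries, and 10 neutrophil markers to 16.7 to 36.7 and 38.3 to 147 TPM. The monocyte and macrophage markers summed to 5019 to 5695 TPM in WT and 5861 to 6065 TPM in cKO pDCs. Ly6c2, which pDCs themselves express, made up 4771 to 5456 and 5574 to 5702 TPM of it, while C1qa was at 14.0 to 24.5 and 22.8 to 48.7 TPM and Csf1r at 11.6 to 16.0 and 20 to 29.3 TPM. Their part in the pDC and cDC1 results was not tested.

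The balance of activating to inhibitory receptor RNA was lower in cKO cDCs. The summed TPM of Fcgr1, Fcgr3 and Fcgr4 divided by that of Fcgr2b was 0.917, 0.518 and 0.758 in WT and 0.134, 0.105 and 0.127 in cKO cDC2s. All 3 WT cDC2 libraries stood above all others, and cKO cDC2s were 5.86-fold lower on the mean log2 scale. In cDC1s the ratio was 0.0980 and 0.0763 in WT and 0.0308 and 0.0372 in cKO libraries, a 2.55-fold difference without overlap. With Fcgr3 alone over Fcgr2b, the log2 difference in cDC1s was -1.96 in place of -1.35. With 2 libraries against 2, an exact two-sided permutation test cannot give less than the p = 0.333 obtained. In pDCs the ratio was 0.204, 0.243 and 0.131 in WT and 0.114, 0.0889 and 0.168 in cKO libraries, which overlapped (1.56-fold lower, exact two-sided permutation p = 0.200, smallest possible p = 0.1).

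**Figure D3:**
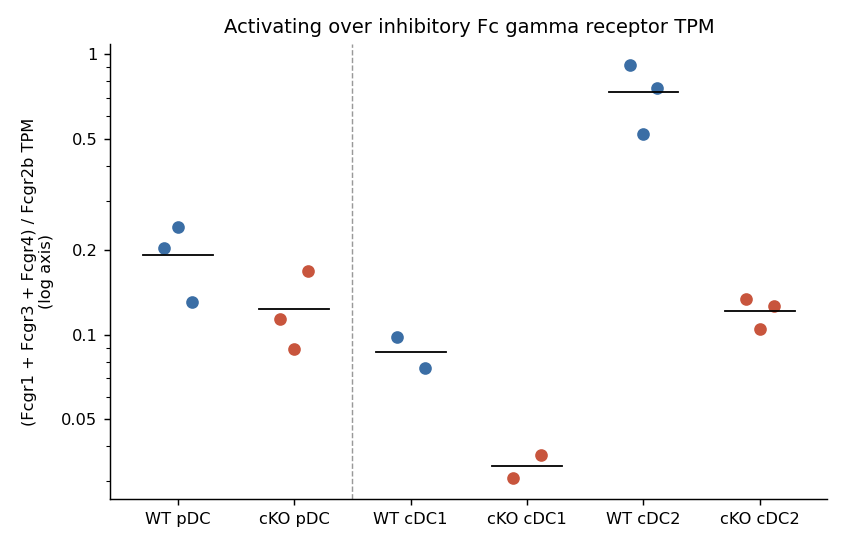
Summed TPM of Fcgr1, Fcgr3 and Fcgr4 divided by the TPM of Fcgr2b in each library (log axis), with blue points for WT, red points for cKO and a line at the group mean. WT cDC2s lie between 0.518 and 0.917 and cKO cDC2s between 0.105 and 0.134, next to the pDC values on the other side of the dashed line between the separately normalized tables.

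The machinery on which these receptors act was listed as 57 genes in 6 groups of adaptors, kinases, downstream genes, inhibitory genes, gamma chain partners and other Fc-binding receptors. In pDCs, 1 of 46 tested genes was called, beside 1.05% of all genes. This was Lat, an adaptor best known from T cells, with means of 5.37 ± 1.52 TPM in WT and 16.0 ± 0.698 TPM in cKO libraries (SD over 3 libraries). Its log2 fold change was 1.44 ± 0.17 SE (limma adjusted p = 0.00561), and the call was lost when any one of 4 libraries was left out, WT replicate 3 or a cKO replicate. With the replicate number as a block, 2 genes of the lists were called, Lat among them. The 5 T cell markers summed to 6.85 to 9.45 TPM in WT and 14.2 to 17.8 TPM in cKO pDCs, with Cd3e at or below 0.24 TPM, and their part in the Lat value was not tested.

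In cDC1s, 11 of 44 tested genes of these lists were called, 8 lower and 3 higher, near the background of 22.4%, with a list median of -0.02 beside 0.17 for all genes. Of 8 proximal kinases, 3 were called lower, beside 6.56% of all genes. Src averaged 1.73 ± 0.283 TPM in cKO libraries against 14.98 ± 6.31 TPM in WT libraries (SD over 2 libraries), a log2 fold change of -2.49 ± 0.25 SE (limma adjusted p = 0.000112). Tec fell by 0.62 and Fgr by 0.60 on the log2 scale. Cblb, an E3 ligase that restrains receptor signalling, fell by 1.26, and the adaptor Hcst and the PI3-kinase subunit Pik3r1 fell by 0.81 and 0.79. Clec4n, a C-type lectin that pairs with Fcer1g, fell by 1.04, and Fcgrt, the neonatal Fc receptor, fell by 0.77. The adaptor Lat2 rose by 0.67 and the phosphatase Ptpn11 by 0.70. Pira2, which pairs with Fcer1g, rose by 1.39, but it belongs to near-identical paralogs among which reads could be split. Src, Cblb and Pira2 kept the call when any one of the 10 cDC libraries was left out, and the other 8 genes lost it without 3 to 8 of them.

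In cDC2s, 4 of the 44 genes were called, 3 lower and 1 higher, beside 7.15% of all genes. Malt1, a scaffold that links ITAM receptors to NF-kB, fell by 0.91 on the log2 scale (limma adjusted p = 0.00115), Cblb by 0.66 (limma adjusted p = 0.00698) and Tec by 0.62 (limma adjusted p = 0.00789). Lat2 rose by 0.51 (limma adjusted p = 0.00578). Malt1 kept the call when any one of the 10 cDC libraries was left out, whereas Cblb lost it without 6, Lat2 without 7 and Tec without 9 of them. Among the listed genes, the change of Src differed between cDC1s and cDC2s in an interaction test by -2.18 on the log2 scale (limma adjusted p = 0.00375), and no other gene of the 6 groups passed that test.

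Between the WT subsets, 25 of the 44 genes were called, 20 lower and 5 higher in cDC1s, beside 31.7% of all genes either way. Of all calls in this contrast 34.4% were higher in cDC1s, and 51.4% with the libraries scaled by the median of ratios. The kinases Fgr, Tec and Syk were lower in cDC1s, with log2 values of -2.93, -1.83 and -1.61, and Src was higher by 2.35. Among the downstream genes, Malt1, Lcp2, Vav2 and Rac2 were lower in cDC1s (log2 -1.64, -1.48, -1.39 and -1.32) and Vav3 was higher (0.96). Of the inhibitory side, the phosphatase gene Ptpn6 was lower (log2 -1.82) and Inpp5d, which encodes SHIP1, was higher (log2 0.77). Both detected gamma chain partners, Pira2 and Clec4n, were lower in cDC1s, by log2 values of -3.67 and -3.25, in the same direction as Fcer1g.

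**Figure D4:**
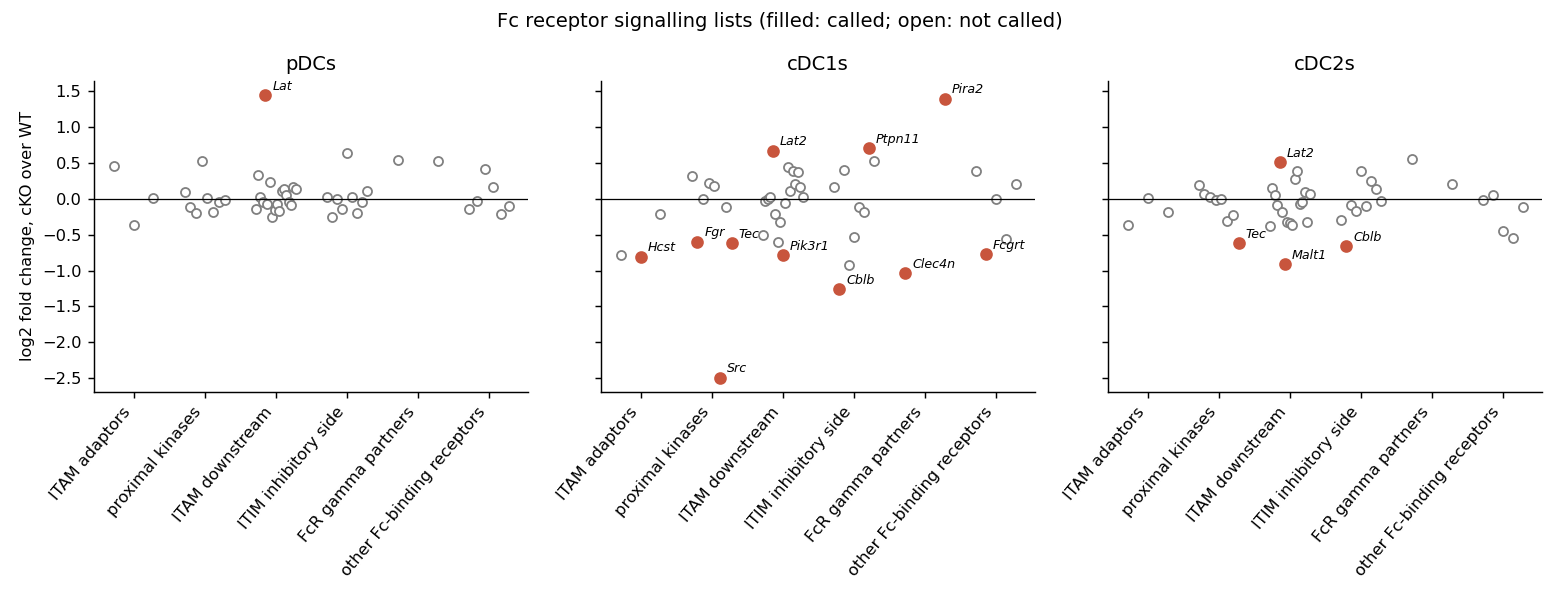
Log2 fold change of cKO over WT libraries for each tested gene of 6 Fc receptor signalling lists in pDCs, cDC1s and cDC2s. Filled points with names passed an adjusted p of at most 0.01 and a log2 change of at least 0.5, which were 1, 11 and 4 genes, with Src lowest in cDC1s at -2.49.

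The genes beside the chromosome 1 receptors were compared in the same fits. Of the 26 genes of the tables within 250000 bases of these 6 genes, 18 were tested in pDCs and none was called by limma, also none at an unadjusted p under 0.05, beside 1.05% of all genes called. Of the 20 tested in cDCs, none was called in cDC2s, where 4 had an unadjusted p under 0.05 and 7.15% of all genes were called. In cDC1s, 2 were called and 8 had an unadjusted p under 0.05, beside 22.4% of all genes called. Atf6, a sensor of endoplasmic reticulum stress, rose by 0.69 (limma adjusted p = 0.00590) and Sdhc, a subunit of succinate dehydrogenase, by 0.54 (limma adjusted p = 0.00276) on the log2 scale. Neither is called with every setting. The median log2 change of the neighbours was -0.06 in pDCs, 0.16 in cDC1s and 0.15 in cDC2s, beside -0.05, 0.17 and -0.03 for all genes.

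**Figure D5:**
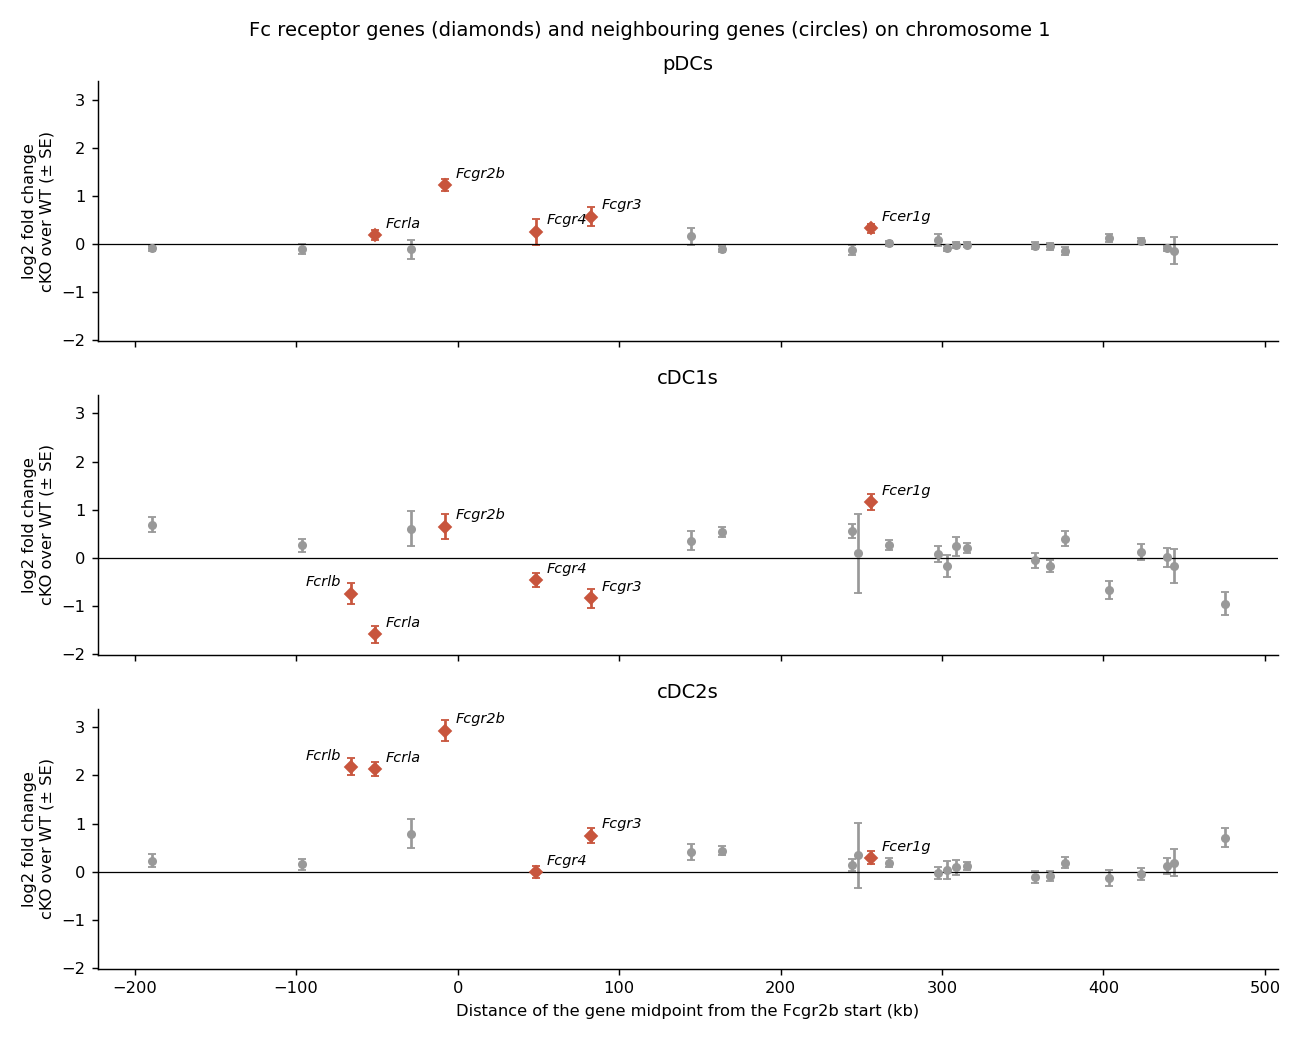
Log2 fold change of cKO over WT libraries, with bars of 1 SE, against the distance of each gene's midpoint from the Fcgr2b start in kilobases, for the 6 receptor genes on chromosome 1 (diamonds) and the tested neighbours (circles). In cDC2s, Fcgr2b, Fcrla and Fcrlb stand at 2.93, 2.13 and 2.18, and no neighbour was called there.

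Over the 10 cDC libraries, the levels of the 7 genes fell into different patterns. On log2(TPM + 1), Fcgr3 and Fcgr4 had a Pearson r of 0.982 and Fcrla and Fcrlb of 0.936, whereas Fcgr2b had an r of 0.407 with Fcgr3 and 0.474 with Fcrlb. These values describe libraries that share subset and genotype and carry no test. The gene most like Fcgr2b was Tubb3 (r = 0.991), followed by Efcab3 and Nr3c2. The closest to Fcgr4 were Apobec1, Fgr and Pygl, and to Fcer1g Clec4b1, Cybb and Ank, all at 0.997 or 0.998. Fcgr3 was closest to Nxpe4, Pilrb1 and Osm (0.994 to 0.996), Fcgr1 to Antxr1, Mmp14 and Spon1 (0.986 to 0.991), Fcrla to Lgals3, Npc2 and Naglu (0.967 to 0.991), and Fcrlb to Eif3h, Slc25a10 and Uap1l1 (0.942 to 0.954).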

How the data were processed

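RNA of sorted splenic DCs was sequenced as single-end reads of 50 bases, and, per the labels and the study's methods, the authors aligned reads with HISAT2 2.0.4 and Bowtie2 2.2.5 (mm10) and estimated expression with RSEM 1.2.12. The authors deposited TPM and FPKM values per gene, in separate tables for pDCs and cDCs; no counts were used. Depth was estimated from the steps of low FPKM values. Genes with a mean of at least 1 TPM were fitted as log2(TPM + 1) with limma 3.58.1 (R 4.3.3, trend on), since a count test was not possible on these units, once for pDCs and once for all cDC groups together, and p-values were adjusted by Benjamini-Hochberg over all genes tested. Fold changes on this scale understate those of low genes. Called means an adjusted p of at most 0.01 and a log2 change of at least 0.5. In simulations with 200 genes changed by 2 on the log2 scale, 95.5% were recovered in pDCs, 96% in cDC1s and 99% in cDC2s. The changed genes were drawn from those above a set level in WT libraries, which left out low genes such as Fcgr1. The shares therefore do not hold for low genes or for smaller changes. All 7 members, Trim33, up to 5 called genes per list and contrast, and the 3 genes most similar to each member were named. The members and lists were chosen with earlier results of these data known. Promoters came from RefSeq (GRCm38.p6), and all 7 members matched. Nothing in the sources used here says whether libraries of a group came from separate experiments, so p-values measure the spread between libraries. Same-numbered WT and cKO pDC libraries deviated together (r = 0.310, 0.392 and 0.206), and with the replicate number as a block 335 genes were called in place of 119, Fcgr2b among them in both (adjusted p = 0.000585 with the block). Alternatives were other pseudocounts (0.1 and 0.5), filters, scalings, FPKM, no trend, the replicate block and leaving out each library. Some results on single genes are not reported here.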

Additional observations from a re-analysis of the deposited data

Results flagged for a closer look

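These genes were flagged by opposite changes without overlap in cKO cDC1s and cKO cDC2s, or by a passed test of the difference between these changes. Fcrla was lower in both cKO cDC1 libraries (log2 fold change -1.59) and higher in all 3 cKO cDC2 libraries (2.13). Fcrlb was likewise at -0.74 and 2.18, and Fcgr3 at -0.84 and 0.75. The difference between the subsets was not tested for these 3 genes, since the cDC2 contrast, from which Fcrla and Fcrlb were chosen, is given without a test for all of the receptor genes. For Src the difference was tested, and its log2 fold change in cDC1s minus that in cDC2s was -2.18. Groups of 3 or fewer libraries were not searched for single libraries that stand apart.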

How the results depend on the processing

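Values with a test were compared by their direction and their side of the threshold. Values given without a test, as in cDC2s, were compared only by whether they moved by more than 1 SD. Of the 223 values of the 7 genes under other settings, 210 stayed the same by these rules, 4 lost a call, 4 gained one and 5 moved by more than 1 SD. Calls lost among the values without a test are not in these counts. None of the called values changed sign, but Fcgr4 in cDC2s, at -0.01, was at 0.04 with FPKM and at 0.05 with median-of-ratios scaling. Leaving out single libraries gave 240 values, of which, by the same rules, 7 lost a call and 3 gained one. Values near 0 changed sign, Fcgr1 in cDC1s, which ranged from -0.37 to 0.03 around -0.17, and Fcgr4 in cDC2s, which ranged from -0.08 to 0.06. The cause of these changes was not tested.

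Without a filter on low values, 0 receptor genes, 24 of all genes and 0 signalling genes were called in pDCs, 1 neighbour in cDC1s, and 3 receptor genes and 2 signalling genes in cDC2s. Without the trend of the variance, 56 genes and 0 signalling genes were called in pDCs. With pseudocount 0.1, 4 neighbours were called in cDC1s and 3 receptor genes in cDC2s, and with 0.5 also 3 in cDC2s. FPKM gave 1 neighbour in cDC1s. Median-of-ratios scaling and quantile normalization each gave 5 receptor genes in cDC1s, and quantile normalization 1 neighbour. These scalings brought the median of all genes in cDC1s from 0.17 to 0.02 and 0.04, and the share of higher calls from 70.7% to 49.9% and 52.4%. Between the WT subsets they brought the median from -0.17 to 0.01 and the share of higher calls from 34.4% to 51.4% and 52.3%. Higher calls were 50.2% of all calls in cDC2s, and 60.5% with median-of-ratios scaling. With Fcgr3 alone over Fcgr2b, the log2 difference of the ratio was -2.18 in place of -2.55 in cDC2s and -1.96 in place of -1.35 in cDC1s.

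With the replicate number as a block, 335 genes and 2 signalling genes were called in pDCs, 2 receptor genes, 7 signalling genes and 0 neighbours in cDC1s, and 3 receptor genes, 356 of all genes and 1 signalling gene in cDC2s. The numbers did not pair the cDC libraries (r = -0.233 in cDC1s, and -0.249, 0.253 and -0.165 in cDC2s). A crossed pairing in cDC1s, chosen after seeing the data, called 2091 genes and 2 receptor genes. The block could not be fitted to the contrast between WT subsets.

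Leaving out single libraries, pDCs gave 0 to 1 receptor genes, 12 to 97 of all genes and 0 to 1 signalling genes. In cDC1s there were 800 to 2888 genes, 3 to 13 signalling genes and 0 to 3 neighbours. In cDC2s there were 3 to 5 receptor genes, 316 to 907 genes, 1 to 3 signalling genes and 0 to 1 neighbours. Where this left 1 library in a cDC1 group, that library was assumed to vary like the other groups. Depth limits Fcgr1 in cDC1s and Fcrlb in pDCs, which lie close to the level of 3 reads.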
